A study of Mus musculus with 6 samples.

Results

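Integrins are cell surface receptors made of 1 alpha and 1 beta subunit, and 10 subunit genes were followed here in adult mouse neurospheres. The genes were Itga2, Itga3, Itga5, Itga6, Itga7, Itgav, Itgb1, Itgb4, Itgb5 and Itgb8, taken by name from the 22180 genes tested, with 1 probe set for each gene. Neurospheres are clusters of neural stem cells and their progeny that form in suspension culture. Here they were grown from the subventricular zone of CD1 mice, an outbred stock, at 2 months of age. The 3 PBS cultures came from offspring of mothers injected with PBS, and the 3 MG cultures from offspring of mothers injected with MG at 0.5 mg/kg. MG stands here for methylglyoxal, the compound that the series title names. Injections were intraperitoneal, 2 a day from gestational day 12 to birth, and all 6 cultures grew for 7 days in EGF and FGF2. The labels call the cultures primary in most places and secondary in one. The labels do not say whether animals of a group shared a mother, so that litter and injection cannot be told apart.

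An alpha and a beta subunit together form the site that binds the extracellular matrix, while the short tails inside the cell connect to talin, kindlin and the actin cytoskeleton. Subunits differ in what they bind. Itga3, Itga6 and Itga7 pair with Itgb1 in laminin receptors, and Itga6 also pairs with Itgb4. Itga5 with Itgb1 is the classical fibronectin receptor, and Itgav pairs with Itgb5 or Itgb8 to bind ligands that carry the RGD tripeptide. In the subventricular zone, stem and progenitor cells touch laminin-rich basement membrane at blood vessels, and integrins that bind laminin are known for anchoring them there.

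The authors' deposited values are log2 values, 1 for each probe set and array, so that 1 unit is a factor of 2. A level was described against a reference of 5.02, the 95th percentile of the mean values of 1390 olfactory and vomeronasal receptor genes, and no level is set against that of another gene. In both groups, 13704 of the 22180 genes tested were above it, the background for every such count below. The labelled cell type was checked first, and all 9 of the neural stem and progenitor markers tested, Sox2, Nes, Egfr and Fabp7 among them, were above the reference in both groups. All 7 astrocyte, all 7 oligodendrocyte lineage and all 7 neuroblast and neuron markers tested were above it as well. This check therefore does not separate stem cells from their progeny. Of markers of other cells, 4 of 9 endothelial, 6 of 10 pericyte and fibroblast, 4 of 9 microglial, 3 of 7 ependymal and 2 of 7 choroid plexus genes were above it. The arrays numbered 3 of both groups stood apart from the other 4. On the first principal component, which held 44.1% of the variance, they scored 21.1 and 37.6, and the others from -21.4 to -9.87. The precision is limited by the number of arrays, and the 95% confidence interval of a gene's log2 difference reached a median of 0.35 to either side.

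Of the 10 subunits, 9 were above the reference in both groups, as were 13704 of the 22180 genes tested. None of the subunits passed the test between MG and PBS. Itga7, a laminin-binding alpha subunit, had the largest difference relative to its spread, with lower values in all 3 MG cultures. The other 9 had 95% confidence intervals that held 0. In limma's moderated test with Benjamini-Hochberg adjustment over all genes, 0 of the 22180 genes passed at an adjusted p under 0.05, which is 0%, and the adjusted p of every subunit was 0.9998. An unadjusted p under 0.05 was found for 712 genes, 3.21% of those tested, and for 1 of the 10 subunits. The groups did not overlap in 1627 genes, 7.34%, and in 1 of the 10 subunits, again Itga7. Lower means after MG were found in 6 of the 10 subunits and in 46.2% of all genes, and the median log2 difference was -0.05 over the subunits and 0.01 over all genes. With 10 subunits, a count of 1 cannot be read as different from these shares.

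**Figure D1:**
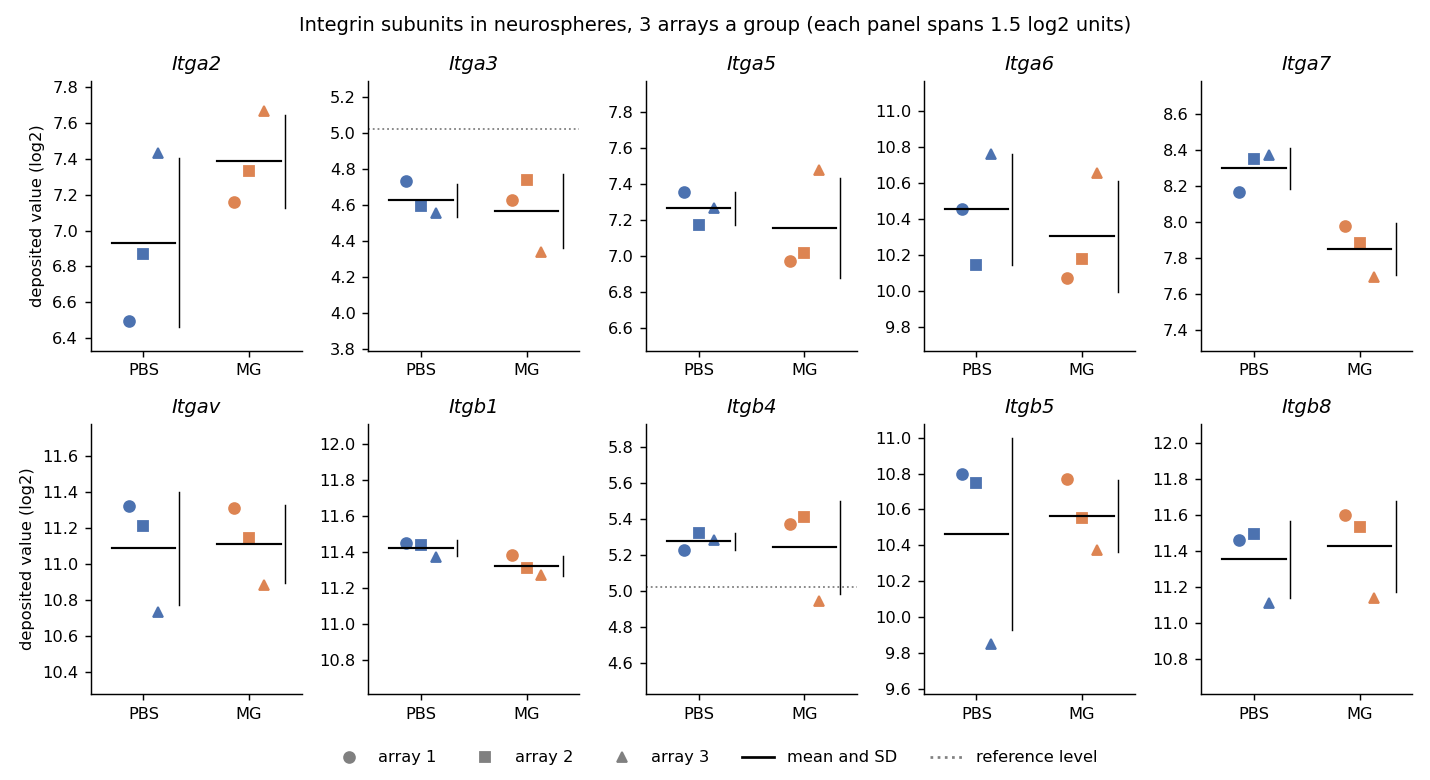
Deposited log2 values (vertical axis) of 10 integrin subunit genes in PBS and MG cultures, 1 point for each array with its number as the shape, a black line at the mean and a thin bar for the SD over 3 arrays. The dotted line is the reference level of 5.02. Itga7 is the only subunit whose groups do not overlap, Itga3 lies below the reference on every array, and the arrays numbered 3 are low for Itgav, Itgb5 and Itgb8 and high for Itga2 and Itga6.

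Among the laminin-binding subunits, Itga7 forms a laminin receptor with Itgb1 and is best known from skeletal and smooth muscle. Itga7 read 8.17, 8.35 and 8.37 on the PBS arrays and 7.98, 7.88 and 7.69 on the MG arrays. Every MG value lay under the lowest PBS value. The means were 8.30 ± 0.11 (SD, n = 3) and 7.85 ± 0.14 (SD, n = 3), so that MG minus PBS was -0.45 on the log2 scale (standard error 0.13), within a 95% confidence interval of -0.74 to -0.15. This is 1.36-fold lower in MG. In limma the unadjusted p was 0.00849, the 92nd smallest of all genes, and the adjusted p was 0.9998. An exact permutation test, two-sided, gave p = 0.1, and 3 arrays against 3 cannot give a smaller one. In bulk cultures, fewer cells of a type and less RNA in each cell cannot be told apart. Among pericyte, smooth muscle and fibroblast markers, 6 of 10 had lower and 4 higher means after MG, and their mean level ran from 5.57 to 5.92 in PBS and from 5.64 to 5.82 in MG. The smooth muscle genes Acta2 (log2 difference 0.76, standard error 0.37) and Tagln (0.47, standard error 0.24) had higher means after MG. Acta2 read 8.83 on PBS replicate 3, against 9.92 and 10.40 on the other PBS arrays. The pericyte genes Pdgfrb and Kcnj8 were not above the reference in both groups. Of the same list, Rgs5 was just above it, with means of 5.13 in PBS and 5.22 in MG. Col1a1, above it too, differed by -0.26 without overlap. The fibroblast genes Dcn (log2 difference -0.40, without overlap) and Lum (-0.42) were below the reference in both groups. In limma, Dcn was the 1 gene of the 10 with an unadjusted p under 0.05, against 3.21% of all genes. The part of such cells in the values of Itga7 was not tested.

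Itga6, which pairs with Itgb1 or Itgb4 and serves as a surface marker of many stem cells, was far above the reference. Itga6 read 10.46, 10.15 and 10.76 on the PBS arrays and 10.07, 10.18 and 10.66 on the MG arrays. The groups overlapped almost entirely, and in each of them the array numbered 3 was the highest. MG minus PBS was -0.15 on the log2 scale (standard error 0.21, interval from -0.63 to 0.33). Itgb4, the beta subunit of hemidesmosomes in epithelia, pairs with Itga6 alone. It stood only just above the reference, at 5.23, 5.32 and 5.28 on the PBS arrays and 5.38, 5.41 and 4.95 on the MG arrays, where the third MG value was below it. Its log2 difference was -0.03 (standard error 0.15).

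Itga3, a receptor subunit for laminins of epithelial and vascular basement membranes, was not above the reference on any array. Itga3 read 4.73, 4.59 and 4.55 on the PBS arrays and 4.63, 4.74 and 4.34 on the MG arrays, and no fold is given. Itga2 forms a receptor for collagens and laminins with Itgb1. Itga2 read 6.50, 6.87 and 7.43 on the PBS arrays and 7.16, 7.33 and 7.67 on the MG arrays. The MG values were all above those of PBS replicates 1 and 2, but PBS replicate 3 was higher than MG replicates 1 and 2, so that the groups overlapped. The means were 6.93 ± 0.47 (SD, n = 3) and 7.38 ± 0.26 (SD, n = 3), and MG minus PBS was 0.45 (standard error 0.24, interval from -0.11 to 1.01). The limma p was 0.0992 unadjusted, and the exact permutation test gave p = 0.3. The size rests on single arrays. Without PBS replicate 3, MG minus PBS was 0.70 (limma's p 0.00969 before and 0.9996 after adjustment). Without PBS replicate 1 it was 0.23 (limma's unadjusted p was 0.336), and without MG replicate 3 it was 0.31 (limma's unadjusted p was 0.261). Over the alternative settings, the adjusted p of the subunits was at least 0.913.

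Itga2 varied the most of the subunits over the 6 arrays, with an SD of 0.42. The 3 genes with the nearest pattern once every gene was centred on its own mean, out of 13704 above the reference, were Oacyl, Ecrg4 and Kifc1. Their root mean square differences from Itga2 over the 6 arrays were 0.058, 0.098 and 0.118 on the log2 scale. Kifc1 encodes a kinesin motor of the mitotic spindle. These genes share the same 6 arrays, and the likeness is a description.

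**Figure D2:**
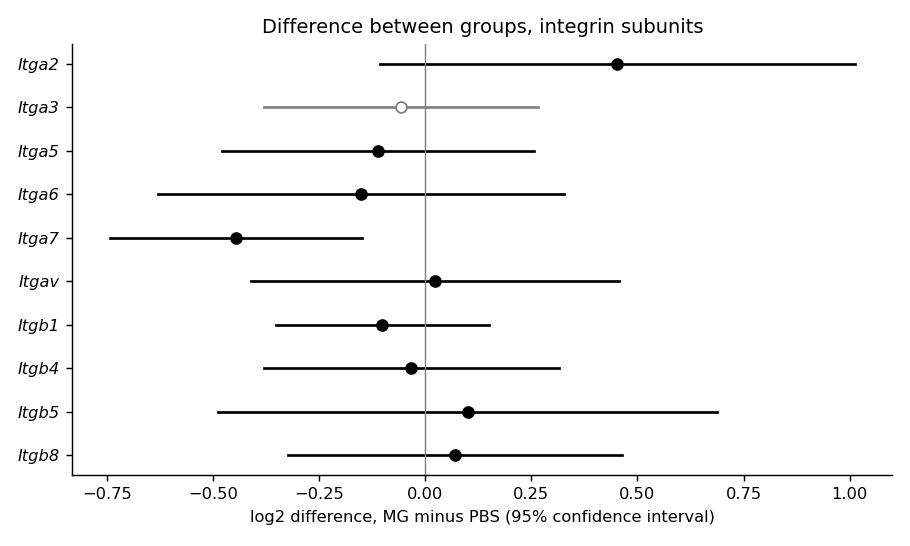
Log2 difference between MG and PBS (horizontal axis) for each integrin subunit, as a point with its 95% confidence interval from limma over 3 arrays a group. The open grey point marks Itga3, which was below the reference level. The interval of Itga7, from -0.74 to -0.15, is the only one that does not reach 0.

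Itgb1 is the common partner of most alpha subunits and was the steadiest of the 10. Itgb1 read 11.45, 11.44 and 11.37 on the PBS arrays and 11.38, 11.31 and 11.27 on the MG arrays. The groups overlapped only in that the highest MG value, of replicate 1, passed the lowest PBS value, of replicate 3. Its within-group SD was 0.05, and only 2.46% of the genes above the reference had a smaller one, the median being 0.18. Between the groups it differed by -0.10 on the log2 scale (standard error 0.11), and the interval ran from -0.35 to 0.15. The exact permutation test gave p = 0.2.

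Among the RGD-binding subunits, all 4 were above the reference in both groups. Itga5, the fibronectin receptor's alpha subunit, read 7.35, 7.17 and 7.27 on the PBS arrays and 6.97, 7.01 and 7.47 on the MG arrays. The MG values lay on either side of the PBS values, with a log2 difference of -0.11 (standard error 0.16, interval from -0.48 to 0.26). Itgav, the alpha subunit shared by the receptors with Itgb5 and Itgb8, read 11.32, 11.21 and 10.73 on the PBS arrays and 11.31, 11.14 and 10.88 on the MG arrays. The groups overlapped, and both had their lowest value on the array numbered 3. MG minus PBS was 0.02 (standard error 0.19).

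Itgb5, which with Itgav binds vitronectin, had the widest spread within groups. Itgb5 read 10.80, 10.75 and 9.85 on the PBS arrays and 10.77, 10.55 and 10.37 on the MG arrays. PBS replicate 3 was the lowest of the 6. MG minus PBS was 0.10 on the log2 scale (standard error 0.25), and its interval, from -0.49 to 0.69, was the widest of the 10. Without PBS replicate 3 the log2 difference was -0.21, and without MG replicate 1 it was -0.0026, so that its sign rests on single arrays. Itgb8, which with Itgav binds and activates latent TGF-beta, is known from astrocytes and radial glia. Itgb8 read 11.46, 11.50 and 11.11 on the PBS arrays and 11.60, 11.54 and 11.14 on the MG arrays. The array numbered 3 was the lowest in each group, the groups overlapped, and the log2 difference was 0.07 (standard error 0.17).

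In 7 of the 10 subunits, Itga2, Itga7 and Itgb1 being the others, the within-group SD was larger than the difference between the groups. In several of them the arrays numbered 3 stood farthest from the others. Itgav and its partners Itgb5 and Itgb8 were lowest there in both groups. The beta subunits Itgb3 and Itgb6 were not, and neither was above the reference in both groups. Relative to the mean of the other 2 arrays of its group, Itgb5 was at -0.92 in PBS replicate 3 and -0.29 in MG replicate 3. Itgav was at -0.54 and -0.34, and Itgb8 at -0.37 and -0.43. Itgb1 (-0.07 and -0.08) and Itga3 (-0.11 and -0.34) were also lowest there, which makes 5 of the 10 subunits, against 21.2% of all genes. The collagen and laminin receptor subunits Itga2 (0.75 and 0.42) and Itga6 (0.46 and 0.53) went the other way and were highest there. These are 2 of the 10 subunits, against 19.6% of all genes. Itga7 was in neither class, since PBS replicate 3 was the highest of its group and MG replicate 3 the lowest.

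**Figure D3:**
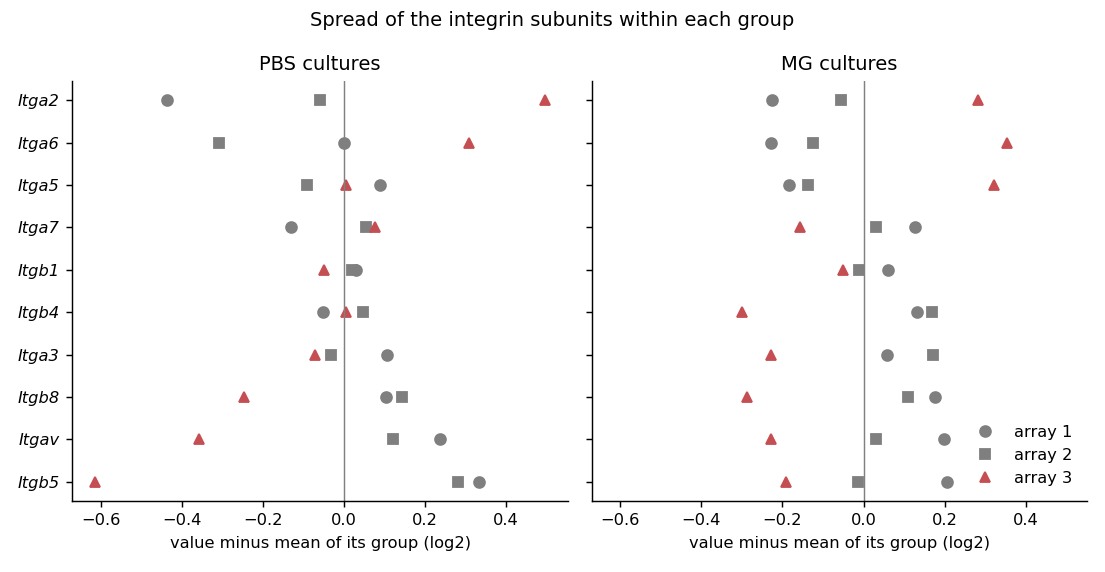
Value of each integrin subunit minus the mean of its group (horizontal axis, log2), for the 3 PBS arrays on the left and the 3 MG arrays on the right, with the arrays numbered 3 as red triangles. Itgb5, Itgav and Itgb8 lie to the left on these arrays and Itga2 and Itga6 to the right, in both groups.

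Other gene groups moved with the arrays numbered 3. All 19 replication and S phase genes and all 16 mitosis genes tested were highest on them in both groups, and 10 of 12 glycolysis and lactate genes and 6 of 7 astrocyte genes were lowest. The mean level of the astrocyte genes was 8.57 and 8.54 on these arrays and between 8.99 and 9.44 on the others. The part of cell cycling, metabolism or cell type in the integrin values was not tested. Without both arrays numbered 3, Itga7 had a log2 difference of -0.33 and an unadjusted p of 0.0475, and Itga2 one of 0.56 and 0.0146. The adjusted p in that fit was 0.9995 for both.

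The regions upstream of Itgav and its partners Itgb5 and Itgb8 are shown because these 3 shared their low values on the arrays numbered 3. RefSeq promoter entries of GRCm38.p6 were found for 7 of the 10 subunits, and the 250 bases before the annotated start were read on the gene's strand. The windows are chr2:83724147-83724396 (plus strand) for Itgav, chr16:33829415-33829664 (plus strand) for Itgb5 and chr12:119238277-119238526 (minus strand) for Itgb8. Capitals mark GC boxes, GGGCGG on either strand.
Itgav: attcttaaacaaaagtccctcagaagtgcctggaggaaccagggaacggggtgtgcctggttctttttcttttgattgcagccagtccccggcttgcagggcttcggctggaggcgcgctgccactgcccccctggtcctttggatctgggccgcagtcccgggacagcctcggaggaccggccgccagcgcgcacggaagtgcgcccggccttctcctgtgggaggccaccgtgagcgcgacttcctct
Itgb5: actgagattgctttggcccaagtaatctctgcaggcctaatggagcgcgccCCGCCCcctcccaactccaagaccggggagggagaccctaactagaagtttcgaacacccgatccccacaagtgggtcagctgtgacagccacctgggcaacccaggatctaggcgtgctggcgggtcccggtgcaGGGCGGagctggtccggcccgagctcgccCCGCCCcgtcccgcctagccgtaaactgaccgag
Itgb8: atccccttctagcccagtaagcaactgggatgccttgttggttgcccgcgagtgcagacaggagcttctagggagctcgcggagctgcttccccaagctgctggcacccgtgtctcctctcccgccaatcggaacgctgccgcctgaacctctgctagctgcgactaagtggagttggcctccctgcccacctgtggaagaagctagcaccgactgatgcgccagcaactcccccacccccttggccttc
The GC content was 64.4% for Itgav, 65.2% for Itgb5 and 62.4% for Itgb8, where the median of 32851 such windows was 52.4%. Itgb5 held 3 GC boxes and the other 2 windows none, while 32.7% of all windows held at least 1. None of the 3 held the hypoxia response core ACGTG (16.6% of all windows), the AP-1 site TGANTCA (6.75%) or the core of the cyclic AMP response element, TGACG (17.8%), each searched on both strands. Itgb1 and Itga3, also lowest on the arrays numbered 3, are not shown. Itgb1 held 1 GC box and 1 TGACG, and the windows of Itga3 held 3 and 1 GC boxes. ACGTG and TGACG share letters and can overlap. These motifs were chosen after the values were seen, and a match or its lack describes only these letters in these windows.

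The remaining integrin subunits were mostly low. Of 15 tested, 7 were above the reference in both groups, against 13704 of the 22180 genes tested. Itga4 was clearly above it, with means of 7.47 in PBS and 7.29 in MG, and Itga1 had means of 6.21 and 6.11. Itga4 was highest on the arrays numbered 3 of both groups. Lower means after MG were found in 10 of the 15, against 46.2% of all genes, and higher ones in 5. The median log2 difference of the 15 was -0.04. Itga9, whose receptor with Itgb1 binds tenascin-C, was the 1 subunit of these with an unadjusted p under 0.05. Over all genes, 3.21% had such a p. Itga9 read 5.40, 5.25 and 5.30 on the PBS arrays and 5.83, 5.41 and 5.76 on the MG arrays. Every MG value was above every PBS value, by a narrow margin for replicate 2. Itga9 differed by 0.35 on the log2 scale (standard error 0.14), and limma's unadjusted p was 0.0409 and its adjusted p 0.9998. Itga2b, the platelet alpha subunit, differed by -0.21 without overlap, and Itgb2, the beta subunit of leukocytes, by -0.23. Both were close to the reference, and so was Itga9, with means of 5.32 in PBS and 5.66 in MG.

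Among the ligands, all 10 laminin chains tested had higher means after MG, while 46.2% of all genes had lower ones. None of the chains had an unadjusted p under 0.05. Their log2 differences ran from 0.02 to 0.19 with a median of 0.09. The named chains were Lamb1 (0.19), Lamc1 (0.18) and Lamb3 (0.14), with standard errors between 0.14 and 0.23. Without PBS replicate 3 these differences were 0.0053, 0.054 and 0.043. Of the 10 chains, 6 were lowest on the arrays numbered 3 of both groups, against 21.2% of all genes. Lamb1 was among them, at 6.83 in PBS and 6.98 in MG. Higher means were left in 6 of the 10 chains without PBS replicate 3 and in 4 without both arrays numbered 3, an alternative added for this count after the values were seen. Of the 21 RGD-bearing and other matrix ligands tested, 15 had higher and 6 lower means, with a median of 0.04. Ltbp1, which holds latent TGF-beta in the matrix, read 6.84, 6.81 and 6.41 on the PBS arrays and 6.18, 6.25 and 6.33 on the MG arrays. All MG values were under the lowest PBS value. MG minus PBS was -0.43 (standard error 0.15), and limma's unadjusted p was 0.0185 and its adjusted p 0.9998. Its relative Ltbp3 differed by 0.19, and Thbs1, a thrombospondin, by 0.43. Thbs1 was at 6.80 on MG replicate 3 and at 5.99 and 6.04 on the other MG arrays, and without MG replicate 3 its log2 difference was 0.17. Fn1, the fibronectin gene, differed by 0.03 and Tnc, tenascin-C, by -0.22.

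Of the laminin receptors that are not integrins, Dag1, which encodes dystroglycan, was bright and differed by 0.03. The Lutheran glycoprotein gene Bcam differed by 0.14 and the sarcoglycan gene Sgca by 0.23. No gene of these 5 had an unadjusted p under 0.05, 4 had higher means, and the median was 0.03.

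Of 28 adaptors and effectors inside the cell, 18 had higher and 10 lower means after MG, with a median log2 difference of 0.03. An unadjusted p under 0.05 was found for 1 with a higher mean, Tns1, and 2 with lower means, Ptk2b and Fermt1. Over all genes, 3.21% had such a p, and 46.2% had lower means. Ptk2b, a kinase related to focal adhesion kinase, read 6.97, 6.67 and 6.13 on the PBS arrays and 5.90, 6.24 and 5.87 on the MG arrays. PBS replicate 3 lay below MG replicate 2, so that the groups overlapped, and MG minus PBS was -0.59 on the log2 scale (standard error 0.22). Tns1, a tensin that binds beta tails and actin, read 6.25, 6.36 and 6.40 on the PBS arrays and 6.70, 6.60 and 6.57 on the MG arrays, with no overlap. It differed by 0.28 (standard error 0.11). Parvb, a parvin of the complex around integrin-linked kinase, differed by 0.30, and by 0.19 without PBS replicate 1. Fermt1, a kindlin of epithelia, was below the reference on every array. The adjusted p of Ptk2b, Tns1, Parvb and Fermt1 in limma was 0.9998. The talin gene Tln1 (0.07) and the kindlin gene Fermt2 (0.06), whose products bind beta tails, differed by less than their standard errors of 0.13.

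Of 9 membrane proteins that associate with integrins, 6 had higher and 3 lower means, and none had an unadjusted p under 0.05. The tetraspanin genes Cd151, a partner of laminin-binding integrins, and Cd81 differed by -0.15 and -0.08, and Lgals3, a galectin, by 0.09. The median was 0.02.

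**Figure D4:**
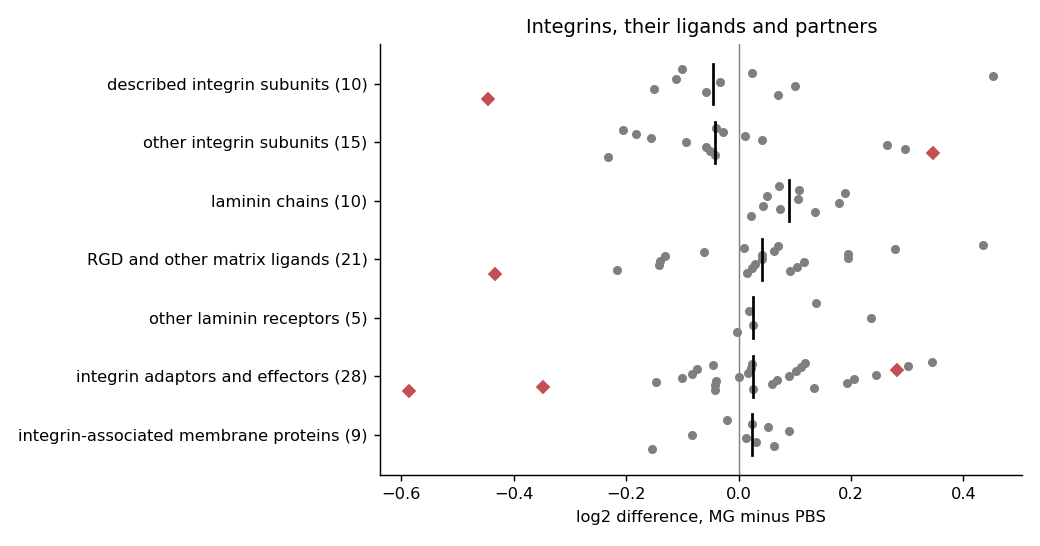
Log2 difference between MG and PBS (horizontal axis) of each gene in 7 lists, with the number of genes tested in brackets, 1 point for each gene, and a black line at the median of the list. Red diamonds have an unadjusted p under 0.05 in limma, and no gene passed after adjustment. Among the subunits described, the red diamond is Itga7, and all 10 laminin chains lie to the right of 0.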

How the data were processed

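RNA of neurospheres from 3 PBS and 3 MG offspring was measured on 6 Affymetrix Mouse Gene 2.0 ST arrays, from 250 ng of total RNA each. The log2 values deposited by the authors lie between 0.73 and 13.81, with array medians from 5.25 to 5.42. Per the submitters' processing notes, Partek 6.6 was used. The sources used here give no background correction, normalisation or genome build, and the range of the values shows the log2 scale. Gene names came from the array platform's annotation and RefSeq gene IDs. Of 41345, 23521 named 1 gene, 1814 several and 16010 were unnamed here. Per gene, the probe set with the highest mean over the 6 arrays was used. MG was compared with PBS in limma 3.58.1 under R 4.3.3 (lmFit, eBayes, two-sided, no covariate), adjusted over 22180 genes at a threshold of 0.05, and the steps were tested on simulated data. P-values measure the spread between these 3 arrays a group. The subunits and gene lists were chosen with earlier results of these data known. Named genes were all 10 subunits, the 3 of each other integrin-related list with the smallest p above the reference, and 3 genes most like the most variable subunit. Itga1, Itga4, Itgb3, Itgb6, Fermt1, Fn1, Tnc, Tln1, Fermt2 and the marker genes given with values were named after their values were seen. Some genes of the lists were not analysed here. Figures were drawn with matplotlib 3.10.9. Alternatives were averaged or all probe sets, no dim genes, other normalisation, moderation or weights, the replicate number as a block, and arrays left out.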

Additional observations from a re-analysis of the deposited data

How the results depend on the processing

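No gene and no subunit passed the adjusted threshold under any of the alternatives. Of 160 values of single subunits, 143 kept their sign and 17 turned it. Itga7 stayed negative with an unadjusted p under 0.05 in all 16 alternatives, from -0.51 to -0.33 and p from 0.00724 to 0.0475, and Itga2, Itga5 and Itgb1 kept their sign. The groups of Itga7 did not overlap, so that leaving arrays out could not turn its sign, and all alternatives reuse the same arrays. Of 288 values of the 18 other named genes, 284 kept their sign. Both counts include settings that could not turn a sign. Changing the moderation, the set of genes tested or the block left each log2 difference as it was. Averaging probe sets changed it only for genes with several. Itgb4 turned to 0.014 with quantile normalization. With array weights Itgav was -0.035, Itgb4 0.064 and Itgb5 -0.043. Without both arrays numbered 3, Itga3 was 0.021, Itgav -0.041, Itgb4 0.12, Itgb5 -0.11, Lamc1 -0.0017 and Dag1 -0.014. With 1 array left out, the ranges were -0.14 to 0.057 for Itga3, -0.33 to 0.0028 for Itga6, -0.16 to 0.14 for Itgav, -0.12 to 0.12 for Itgb4, -0.21 to 0.27 for Itgb5, -0.052 to 0.21 for Itgb8, -0.046 to 0.085 for Dag1 and -0.035 to 0.19 for Lgals3. Among genes that kept their sign, they were 0.23 to 0.70 for Itga2, -0.27 to -0.019 for Itga5, 0.17 to 0.58 for Thbs1, 0.12 to 0.33 for Sgca, -0.36 to -0.096 for Itgb2 and -0.27 to -0.041 for Cd151. Subunits with lower means then numbered 4 (without MG replicate 3) to 9 (without MG replicate 1). Laminin chains with higher means numbered 6 (without PBS replicate 3) to 10, and 4 without both arrays numbered 3. Genes with an unadjusted p under 0.05 numbered 246 without dim genes, 1163 with array weights and, with 1 array left out, 416 (without PBS replicate 1) to 956. Subunits with such a p were 1 or 2 with 1 array left out, and 2 without PBS replicate 3, with array weights, without both arrays numbered 3 and with the replicate block. The second was Itga2 each time. The cause of these moves was not tested. The labels do not say whether the replicate numbers pair the samples, and the values did not settle it. Same-numbered arrays had correlations of 0.218, 0.040 and 0.447 between their deviations from the group means. The value of the arrays numbered 3 was the largest of all pairs, but PBS replicate 2 with MG replicate 1 reached 0.256. The block gave 0 adjusted calls and 1063 genes with an unadjusted p under 0.05 in limma. With 3 arrays a group, differences under about 0.35 on the log2 scale are within a typical interval.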

Other observations

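A second probe set was paired with Itgav alone, and all 6 of its values were under the reference of 5.02. It read 4.52, 4.02 and 4.38 on the PBS arrays and 4.22, 4.39 and 4.36 on the MG arrays, and MG minus PBS was 0.02 (standard error 0.15). It did not show the low values on the arrays numbered 3 that the brighter probe set showed.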
